A study of Mus musculus with 20 samples.

Results

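Perineuronal nets are lattices of extracellular matrix that wrap the cell body and proximal dendrites of certain neurons, chiefly the fast-spiking interneurons that make parvalbumin. A hyaluronan chain forms the backbone of the net. Lecticans, which are chondroitin sulfate proteoglycans, hang from that chain, link proteins lock the lecticans to it, and tenascin-R joins the far ends of the lecticans to each other. The nets appear late in development, restrict the plasticity of the synapses they surround, and have been tied to the stability of memory in the neocortex and hippocampus.

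The 10 genes described here encode these parts and were picked by name, with earlier results of these data known. They are the 4 link protein genes Hapln1, Hapln2, Hapln3 and Hapln4, the 4 lectican genes Acan (aggrecan), Bcan (brevican), Ncan (neurocan) and Vcan (versican), Tnr (tenascin-R) and Has3 (a hyaluronan synthase). All 10 were among the 24528 genes of the deposited table and all 10 passed the filter that left 17863 genes for testing. Many of these genes are also used outside nets: versican and brevican are made by glia, Hapln2 belongs to the nodes of myelinated axons, and Hapln3 is best known from vessels and other tissues. The label therefore covers net components as a class and not transcripts found in nets alone.

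Whole neocortex and whole hippocampus of mice aged 18 months were the source of total RNA libraries made after removal of ribosomal RNA. TDP43-KQ mice, homozygous by the study's account, carry a knock-in change in Tardbp, the gene of the RNA-binding protein TDP-43, which replaces a lysine of the RNA-binding region with glutamine and so mimics acetylation of that lysine. The allele was made by genome editing in C57BL/6J zygotes, sits in the endogenous gene and is present in every cell, and the line was kept by breeding heterozygotes. TDP43-WT mice were the controls, and the question was how the change alters RNA in the 2 regions. The neocortex was represented by 5 TDP43-WT libraries (3 female, 2 male) and 6 TDP43-KQ libraries (3 female, 3 male), and the hippocampus by 4 TDP43-WT libraries (3 female, 1 male) and 5 TDP43-KQ libraries (3 female, 2 male). No group received any agent. Mice came from 5 litters.

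Each value is on a log2-like scale and gives a library's distance from the mean of the 6 neocortex TDP43-KQ libraries for that gene. A difference of 1 is thus about a doubling, and differences of genes with few reads are understated. The table holds no expression level and no read depth, so levels of different genes cannot be compared, and precision rests on the spread between libraries. Sex and litter had been removed from the values before deposit. As a result neocortex TDP43-WT male 1, the only library of its litter, sits on its group mean for every gene, and TDP43-KQ female 2 deviates by equal and opposite amounts in the 2 regions. The SDs below therefore understate the spread. Both terms were put back into the limma model, so that the standard error of each difference (SE) allows for them, and p was adjusted over all 17863 genes with a threshold of 0.05. In bulk tissue, fewer cells of a type and less RNA per cell cannot be told apart.

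Tardbp served as the check of the genotype labels. The value of Tardbp was -0.996 ± 0.062 (SD, n = 5) in neocortex TDP43-WT against 0 ± 0.095 (SD, n = 6) in TDP43-KQ, and -0.82 ± 0.19 (SD, n = 4) against 0.011 ± 0.11 (SD, n = 5) in the hippocampus. Tardbp rose by 1.00 ± 0.089 (SE) in neocortex (adjusted p = 0.000117) and by 0.83 ± 0.095 in hippocampus (adjusted p = 0.00163), with every TDP43-KQ library above every TDP43-WT library of its region. The region labels were borne out by 5 of 6 neocortex markers, which were lower in the hippocampus, and by 6 of 6 hippocampus markers, which were higher there. The exception was Fezf2, at 0.48 ± 0.066 (adjusted p = 4.89e-05) in TDP43-WT.

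The genes of the link proteins and lecticans lie in pairs. In the RefSeq annotation of GRCm38 (the assembly mm10) each Hapln gene has a lectican gene as its neighbour, with 0 annotated genes wholly between them. Hapln1 (chr13:89540529-89611832) and Vcan (chr13:89655309-89743027) are 43476 bp apart, Hapln2 (chr3:88020558-88027511) and Bcan (chr3:87987531-88002175) 18382 bp, Hapln3 (chr7:79117027-79133173) and Acan (chr7:79053226-79115099) 1927 bp, and Hapln4 (chr8:70083529-70090862) and Ncan (chr8:70093085-70120863) 2222 bp. In 3 of the pairs the genes point towards each other. Bcan and Hapln2 run in the same direction. Tnr (chr1:159523729-159931729) and Has3 (chr8:106870242-106882902) stand apart from these pairs.

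Hapln1 and Vcan are the pair in which both genes were higher past the threshold in the hippocampus of both genotypes, as given below. Their promoters are printed here (RefSeq, GRCm38, windows of 300 bases), with matches to GGGCGG, the core of the GC box, on either strand in capitals. The windows of Vcan, Bcan and Hapln3 lie wholly inside the gene spans given above, so they do not cover the outermost start.
Hapln1 (chr13:89540386-89540685, plus strand): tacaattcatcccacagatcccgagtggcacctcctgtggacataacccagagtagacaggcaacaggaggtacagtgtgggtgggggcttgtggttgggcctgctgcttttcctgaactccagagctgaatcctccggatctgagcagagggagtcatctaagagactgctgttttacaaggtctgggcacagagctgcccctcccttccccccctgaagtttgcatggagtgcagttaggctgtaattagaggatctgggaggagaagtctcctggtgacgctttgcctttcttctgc
Vcan (chr13:89742463-89742762, minus strand): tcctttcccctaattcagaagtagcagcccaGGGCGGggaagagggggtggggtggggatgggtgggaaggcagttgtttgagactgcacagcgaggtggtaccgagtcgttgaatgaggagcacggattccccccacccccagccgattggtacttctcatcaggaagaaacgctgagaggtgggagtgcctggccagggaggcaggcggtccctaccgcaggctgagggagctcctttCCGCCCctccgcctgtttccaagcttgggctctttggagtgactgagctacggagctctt
GGGCGG is held by 35.7% of all 32851 promoters of the same length, and by those of Acan, Bcan, Ncan and Vcan among the 8 net genes with an entry (Hapln4 and Has3 had none). The 300-base window of Hapln1 held 3 CpG dinucleotides and that of Vcan 12, against a median of 7.0 over all promoters. Acan with 31 had more than 89.4% of all promoters, and Bcan with 24 more than 80.0%. The neighbours thus differed in these windows, in which Hapln2 held 2 CpG and Hapln3 9. CCAAT, which 37.4% of promoters held on either strand, was found in Hapln2, Acan, Bcan and Vcan. TATAAA, found in 13.6%, was held by Hapln3 and Ncan.

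TDP-43 binds RNA rich in alternating U and G. TGTGTG, counted with overlaps on the sense strand, was present in the longest protein-coding transcript (GENCODE M21) of 9 of the 10 genes, Hapln2 being without it, and in 68.0% of 21877 genes. The longest unbroken run of alternating T and G was 56 bases in Hapln1, a length reached by 0.183% of genes, 14 in Hapln3 and 10 in Tnr. The runs of the 4 genes with the lowest hippocampus genotype p are shown here in capitals within 30 bases of transcript.
Hapln4: tctgaggacccaTGTGTGctcaagggtcaa
Has3: actacatccagGTGTGTGactctgacactg
Acan: aaaacccacatTGTGTGTGccccactcccc
Bcan: tctggggagaacTGTGTGgtcatggtgtgg
These runs were 6, 7, 8 and 6 bases long, and runs of at least 6 bases occurred in 73.9% of genes. The gene with the longest run, Hapln1, differed between genotypes by -0.010 (neocortex) and by 1.7e-04 (hippocampus). The search covered spliced transcripts and no introns, and binding was not measured.

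**Figure D1:**
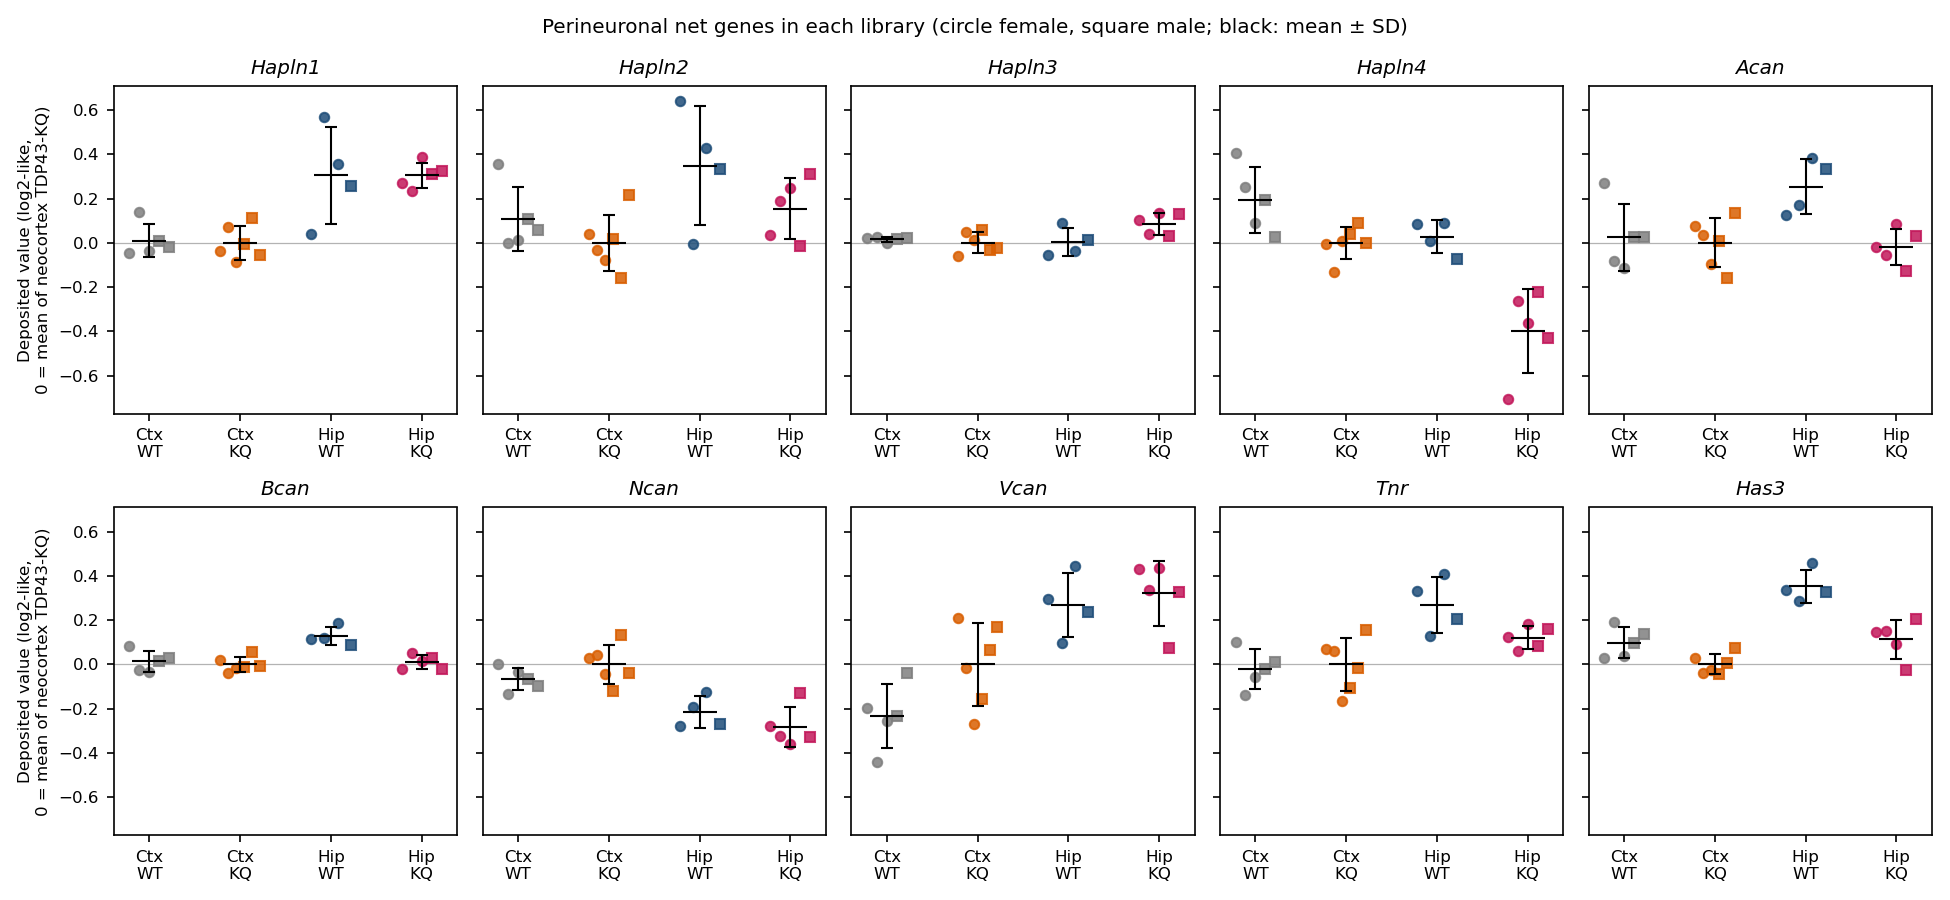
Values of the 10 perineuronal net genes in each of the 20 libraries (y axis, log2-like scale, 0 is the mean of neocortex TDP43-KQ), by region and genotype (Ctx neocortex, Hip hippocampus, WT TDP43-WT, KQ TDP43-KQ), with circles for females, squares for males and black bars for mean ± SD. The 5 hippocampus TDP43-KQ points of Hapln4 lie between -0.70 and -0.22, below all other points of that gene.

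In the hippocampus of TDP43-KQ mice, none of the 10 net genes changed past the threshold, while 0.386% of all genes did (69 of 17863, and 8 genes without TDP43-KQ female 1). Of the 10, 7 lay below and 3 above TDP43-WT, with a median difference of -0.13 against -0.0010 over all genes tested. At an unadjusted p under 0.05, 4 of the 10 were lower (Hapln4, Has3, Acan and Bcan) and 0 higher, where 7.65% of all genes were lower by that rule. In the same 4 genes every TDP43-KQ library lay below every TDP43-WT library, which held for 5.45% of all genes. They are a link protein, a hyaluronan synthase and 2 lecticans. The set was chosen with earlier results of these data known, so these shares are a description and carry no test.

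Hapln4 encodes the link protein that couples brevican to hyaluronan around inhibitory synapses. Its values were 0.085, 0.010, 0.089 and -0.072 in hippocampus TDP43-WT (females 1 to 3, then the male) and -0.70, -0.26, -0.36, -0.22 and -0.43 in TDP43-KQ (females 1 to 3, then males 1 and 2). The groups did not overlap, and TDP43-KQ female 1 was the lowest of the 5. The group means were 0.028 ± 0.076 (SD, n = 4) and -0.40 ± 0.19 (SD, n = 5), a difference of -0.42 ± 0.11 (95% interval -0.65 to -0.20) or a change of -25.5%. The unadjusted p was 0.00116 and the adjusted p 0.0969. Without TDP43-KQ female 1 the difference shrank to -0.26 ± 0.086 (adjusted p = 0.57). That library also held the highest mean of the choroid plexus markers, 4.12 against 0.086 to 2.57 in the other 4 TDP43-KQ libraries, and the part of this in its Hapln4 value was not tested.

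Has3 encodes a hyaluronan synthase, an enzyme that makes the type of chain on which nets are built. Its hippocampus values were 0.34, 0.29, 0.46 and 0.33 in TDP43-WT and 0.14, 0.15, 0.092, -0.027 and 0.21 in TDP43-KQ, in the same order of libraries. All 5 TDP43-KQ values lay below the lowest TDP43-WT value. Without TDP43-KQ female 1 the difference was -0.25 (adjusted p = 0.443). Over all libraries it was -0.24 ± 0.062 (95% interval -0.37 to -0.11, unadjusted p = 0.00161, adjusted p = 0.112), a change of -15.2%.

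Acan encodes aggrecan, the lectican most closely tied to nets. Its values were 0.12, 0.17, 0.38 and 0.33 in hippocampus TDP43-WT and -0.021, -0.056, 0.083, -0.13 and 0.030 in TDP43-KQ, with a gap between the lowest control and the highest TDP43-KQ library that was smaller than the spread within either group. The difference was -0.27 ± 0.096 (95% interval -0.48 to -0.066, adjusted p = 0.224). Bcan, whose product brevican is made by glia and neurons alike, was at 0.12, 0.12, 0.19 and 0.090 in TDP43-WT and -0.023, 0.050, 0.014, 0.026 and -0.022 in TDP43-KQ. Its difference of -0.12 ± 0.043 (adjusted p = 0.235) was the smallest of the 4, between groups that were both narrow.

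Each of these 4 differences fell short of the threshold once the litters were fitted. When the same values were tested by group alone, or by group and sex, all 4 passed it (adjusted p from 0.00347 to 0.0355), but those fits do not count the litter terms that had been taken out of the values. When each region was fitted alone, 0 of the 10 passed.

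The other 6 net genes overlapped between the hippocampus groups. Tnr was 0.27 ± 0.13 (SD, n = 4) in TDP43-WT and 0.12 ± 0.051 (SD, n = 5) in TDP43-KQ, a difference of -0.15 ± 0.083 (adjusted p = 0.426). Hapln2, the link protein of nodes of Ranvier, gave -0.19 ± 0.13 (adjusted p = 0.523) with TDP43-WT values that were themselves spread from -0.0062 to 0.64. Ncan, a lectican at its peak during development, gave -0.068 ± 0.068 (adjusted p = 0.674). Hapln3 lay higher in TDP43-KQ, by 0.084 ± 0.048 (adjusted p = 0.428), and Vcan by 0.053 ± 0.13 (adjusted p = 0.884). For Hapln1, the link protein of cartilage and of cortical nets, the 95% interval ran from -0.20 to 0.20. A change of up to 0.20 in either direction was therefore not excluded.

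In the neocortex 0 of the 10 genes passed the threshold, against 0.224% of all genes (40 of 17863). None reached an unadjusted p of 0.05, which 14.4% of all genes did, and in none were the groups free of overlap, as they were for 8.63% of all genes. The median difference of the 10 was -0.015, against -0.0017 over all genes.

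The lowest p in the neocortex belonged to Vcan and Hapln4. Vcan was at -0.20, -0.44, -0.26, -0.23 and -0.039 in TDP43-WT (females 1 to 3, then males 1 and 2) and ran from -0.27 to 0.21 with a median of 0.025 in TDP43-KQ. The groups overlapped and the TDP43-KQ libraries were the more spread. The difference was 0.23 ± 0.12 (95% interval -0.019 to 0.49, unadjusted p = 0.0673, adjusted p = 0.368), and it ran from 0.15 without TDP43-KQ female 1 to 0.35 without TDP43-WT male 2.

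Hapln4 was at 0.41, 0.25, 0.091, 0.19 and 0.024 in neocortex TDP43-WT and ran from -0.13 to 0.088 with a median of 0.0029 in TDP43-KQ. TDP43-WT female 1 was the highest library, and the lowest TDP43-WT value lay inside the TDP43-KQ range. The difference of -0.19 ± 0.099 (95% interval -0.41 to 0.018, adjusted p = 0.37) had the same sign as in the hippocampus. It was -0.13 without TDP43-WT female 1 and -0.30 without TDP43-WT male 2. Has3 gave -0.098 ± 0.058 (adjusted p = 0.428) and Hapln2 -0.11 ± 0.13 (adjusted p = 0.702), which shrank to -0.028 without TDP43-WT female 1. The differences of the other 6 genes lay between -0.025 (Acan) and 0.066 (Ncan). For Bcan the 95% interval of -0.099 to 0.073 was the narrowest.

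**Figure D2:**
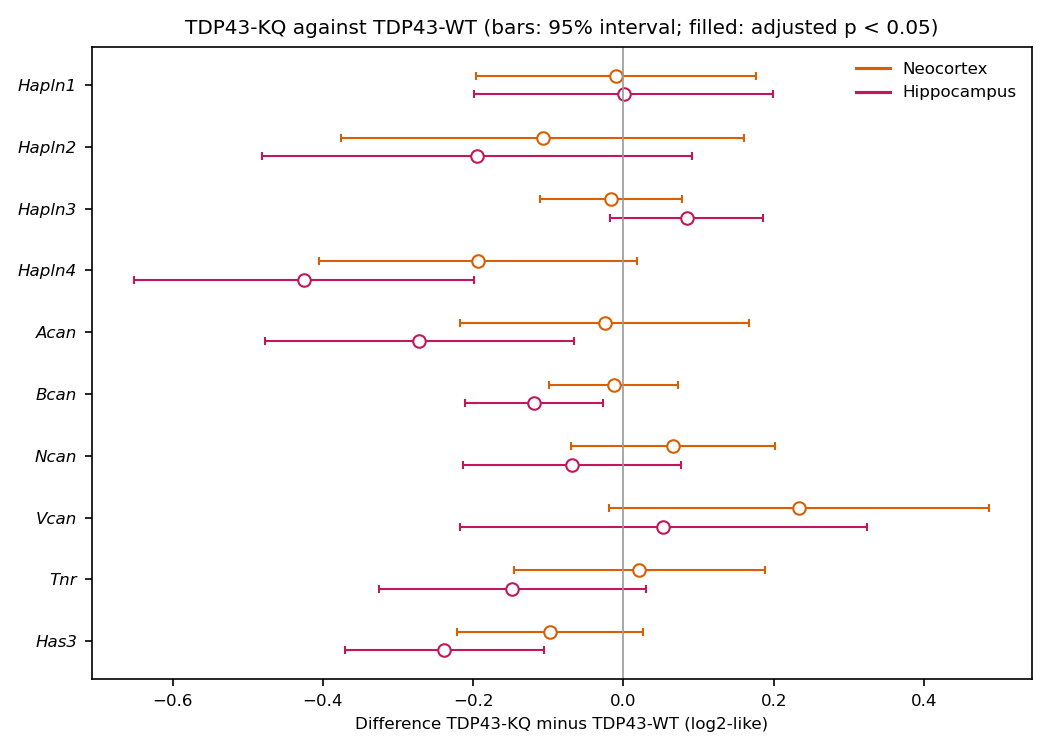
Difference between TDP43-KQ and TDP43-WT for the 10 net genes in the neocortex (orange) and the hippocampus (magenta), x axis in log2-like units, with 95% intervals. No symbol is filled, since no gene passed an adjusted p of 0.05, and the hippocampus intervals of Hapln4, Acan, Bcan and Has3 lie below 0.

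The genotype differences of the 2 regions were then set against each other. Of all 17863 genes, 0% differed between the regions in their response to genotype at the threshold and 5.83% (1041 genes) did so at an unadjusted p under 0.05. Of the net genes 0 did by either rule. For Acan, with -0.025 in the neocortex and -0.27 in the hippocampus, the difference between the regions was -0.25 ± 0.12 (95% interval -0.51 to 0.015, unadjusted p = 0.0628, adjusted p = 0.83). For Bcan it was -0.11 ± 0.055 and for Hapln4 -0.23 ± 0.13, with adjusted p values of 0.83 and 0.839. A response in the hippocampus that differs from that in the neocortex was therefore not shown for any of the 10 genes.

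The regions themselves differed in more net genes than the genotypes did. In TDP43-WT mice 4 of 10 genes were higher in the hippocampus past the threshold (Vcan, Has3, Hapln1 and Tnr) and 0 lower, against 13.5% higher and 14.7% lower of all genes, together 28.2%. In TDP43-KQ mice 2 of 10 were higher (Vcan and Hapln1) and 2 lower (Hapln4 and Ncan), against 17.2% and 18.2% of all genes, together 35.4%. The shares of 4 in 10 thus lay close to those of all genes. The median difference of the 10 genes was 0.23 in TDP43-WT and 0.10 in TDP43-KQ, where all genes had 0.0054 and 0.013.

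Vcan, whose product versican is the most widely made lectican, was at 0.29, 0.095, 0.45 and 0.24 in hippocampus TDP43-WT, all above the neocortex TDP43-WT values given above. The difference was 0.50 ± 0.12 (adjusted p = 0.00586), a change of 41.6% and the largest of the 10. In hippocampus TDP43-KQ the values were 0.43, 0.34, 0.44, 0.074 and 0.33, and male 1 fell inside the neocortex range. There the difference was 0.32 ± 0.11 (adjusted p = 0.0288), and the call was lost in 6 of the 20 fits that left out a library: without females 2 or 3 of neocortex TDP43-KQ, or females 1, 2 or 3 or male 2 of hippocampus TDP43-KQ (adjusted p from 0.0586 to 0.198). Without neocortex TDP43-KQ female 3 the difference was 0.19.

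Hapln1, the neighbour of Vcan, was at -0.045, 0.14, -0.037, 0.010 and -0.017 in neocortex TDP43-WT and 0.040, 0.57, 0.36 and 0.26 in hippocampus TDP43-WT. Hippocampus female 1 was the lowest of its group and lay inside the neocortex range. The difference was 0.30 ± 0.089 (adjusted p = 0.0222), which missed the threshold without females 1 or 3 or male 2 of neocortex TDP43-WT, or females 2 or 3 of hippocampus TDP43-WT (adjusted p from 0.0557 to 0.0856). In TDP43-KQ the hippocampus values were narrower, at 0.27, 0.24, 0.39, 0.31 and 0.32, and all lay above the neocortex range of -0.085 to 0.11 with a median of -0.021. The difference there was 0.31 ± 0.079 (adjusted p = 0.00682) and held without any library. Vcan and Hapln1 thus moved in the same direction between regions in both genotypes, while their deviations within groups had a correlation of -0.20 over the 20 libraries.

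Ncan and Hapln4, the neighbouring pair of chromosome 8, were the 2 genes lower in the hippocampus past the threshold, in TDP43-KQ only. Ncan was at -0.28, -0.33, -0.36, -0.13 and -0.33 in hippocampus TDP43-KQ, all below the neocortex TDP43-KQ range of -0.12 to 0.13 with a median of -0.0044. The difference was -0.28 ± 0.057 (adjusted p = 0.00117) in TDP43-KQ and -0.15 ± 0.065 (adjusted p = 0.1) in TDP43-WT. Hapln4 differed by -0.40 ± 0.089 (adjusted p = 0.00276) in TDP43-KQ and by -0.17 ± 0.10 (adjusted p = 0.246) in TDP43-WT. The gap of Hapln4 in TDP43-KQ rests on the same 5 hippocampus libraries as its genotype difference.

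Tnr, which cross-links lecticans, was at 0.33, 0.13, 0.41 and 0.21 in hippocampus TDP43-WT and 0.10, -0.14, -0.057, -0.021 and 0.0086 in neocortex TDP43-WT. The groups did not overlap and the difference was 0.29 ± 0.080 (adjusted p = 0.0134), with the call lost without females 2 or 3 of the neocortex or female 3 of the hippocampus (adjusted p from 0.0541 to 0.0835). In TDP43-KQ it was 0.12 ± 0.070 (adjusted p = 0.203), and 0.038 without neocortex TDP43-KQ female 3. Has3 differed by 0.25 ± 0.059 (adjusted p = 0.00466) in TDP43-WT, again without overlap, and by 0.11 ± 0.052 (adjusted p = 0.106) in TDP43-KQ. Bcan missed the threshold in TDP43-WT at 0.11 ± 0.041 (adjusted p = 0.0507), and Acan gave 0.23 ± 0.092 (adjusted p = 0.0788). In TDP43-KQ the regions lay close together for both, at 0.0090 ± 0.036 and -0.018 ± 0.081. For Has3, Acan and Bcan the region difference in TDP43-WT and the genotype difference in the hippocampus use the same 4 hippocampus TDP43-WT libraries, so high values there enter both.

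**Figure D3:**
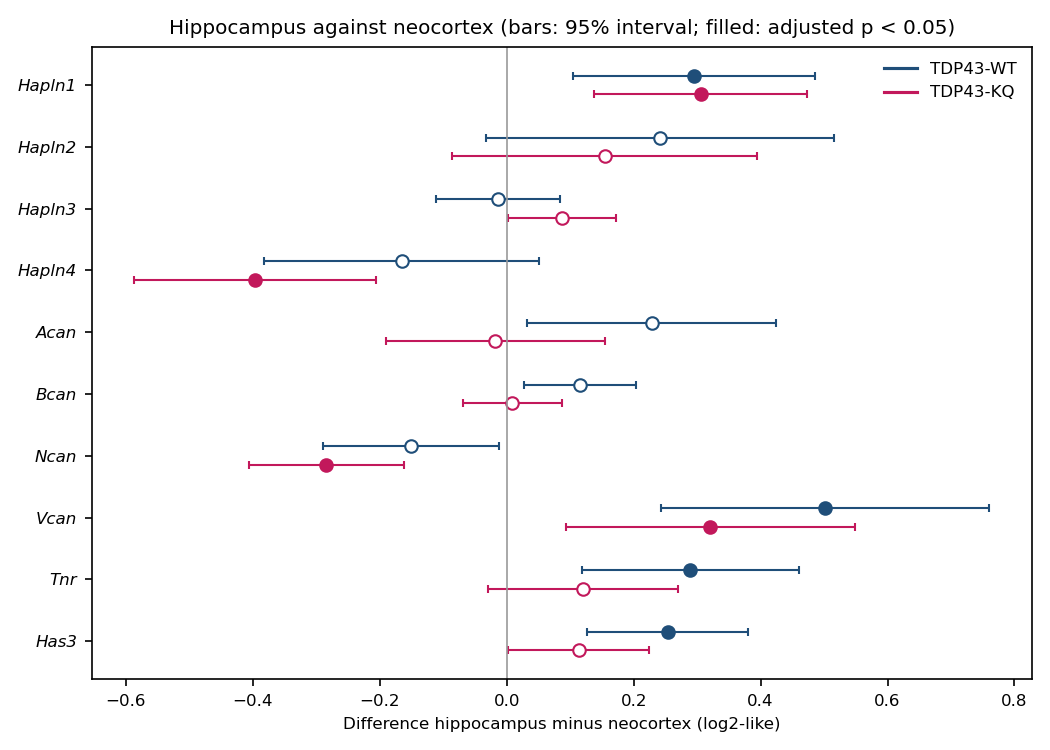
Difference between hippocampus and neocortex for the 10 net genes in TDP43-WT (blue) and TDP43-KQ (magenta), x axis in log2-like units, with 95% intervals and filled symbols for adjusted p under 0.05. Vcan and Hapln1 are filled on the right in both genotypes, and Hapln4 and Ncan on the left in TDP43-KQ.

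The order of the 4 groups differed from gene to gene. Has3 was highest in hippocampus TDP43-WT (0.35 ± 0.074 (SD, n = 4)), with hippocampus TDP43-KQ (0.11 ± 0.088 (SD, n = 5)) and neocortex TDP43-WT (0.098 ± 0.068 (SD, n = 5)) overlapping below it. Acan, Bcan and Tnr were likewise highest in hippocampus TDP43-WT. Hapln4 was highest in neocortex TDP43-WT (0.19 ± 0.15 (SD, n = 5)) and lowest in hippocampus TDP43-KQ. The 4 group means of Hapln3 spanned from 0 to 0.087, the narrowest range of the 10, and all neighbours in its order overlapped.

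How the net genes varied together within groups was described by the correlation of their deviations from the 4 group means. The 20 libraries share litters and, among females, probably mice, so these values carry no test. Of the 45 pairs, 8 had r over 0.5 and 1 had r under -0.5, with a median of 0.071. Vcan and Tnr were the closest (0.80), followed by Hapln2 and Tnr (0.70) and Acan and Tnr (0.66). Hapln4 and Bcan, which meet at the same synapses, gave 0.63. Of the neighbouring pairs, Hapln3 and Acan gave 0.14, Hapln4 and Ncan 0.23, and Hapln2 and Bcan 0.18. Hapln1 and Hapln2 ran against each other (-0.65). Hippocampus TDP43-WT females 1 and 2, both of litter 6, had the largest deviations in both genes. Female 1 was at 0.040 for Hapln1 and 0.64 for Hapln2, and female 2 at 0.57 and -0.0062. The value without these 2 libraries was not computed.

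**Figure D4:**
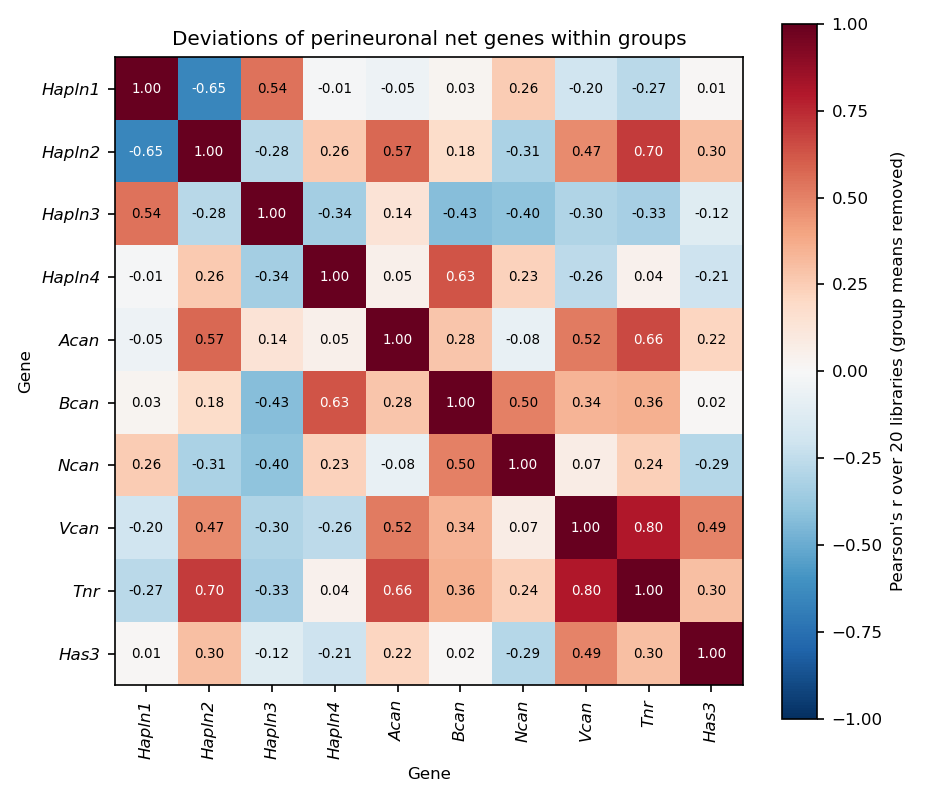
Pearson's r of each pair of net genes over the deviations of 20 libraries from their group means, from -1 (blue) to 1 (red). The pairs among Hapln2, Acan, Vcan and Tnr, which do not all stand side by side, are red, and Hapln1 with Hapln2 is the bluest pair at -0.65.

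Among all genes tested, those whose deviations followed Vcan most closely were Thoc2 (0.97), Insr (0.97) and Ino80d (0.97). For Tnr they were Zbtb20 (0.93), Sipa1l3 (0.93) and Lyst (0.93), for Hapln4 Hbq1b (0.96), Tceal5 (0.94) and Ubald1 (0.90), and for Acan Kcnu1 (0.91), Wipf3 (0.87) and Gm14486 (0.84). Those of Bcan were Dnajb7 (0.94), Ptgdr2 (0.90) and Pcdhga12 (0.88), and those of Ncan Mllt1 (0.91), Ppp1r3g (0.89) and Hist1h4m (0.87). The 3 genes nearest to Hapln1 were Smarce1 (0.94), Itgam (0.91) and Zcchc10 (0.91), and those nearest to Has3 were 4932412D23Rik (0.91), 4930579G18Rik (0.90) and Spo11 (0.87). For Hapln2 they were Igflr1 (0.95), Slc12a9 (0.93) and Mocs1 (0.92), and for Hapln3 Atp1b1 (0.90), Etfa (0.89) and Cradd (0.89). They were picked as the highest over all genes tested, from 20 libraries, and none of the genes named in this way is a net gene. Against the mean of 12 oligodendrocyte markers, the deviations of Hapln1 had r of 0.79 and those of Hapln2 -0.55. Against 6 microglial markers the values were 0.75 and -0.71, against 10 astrocyte markers 0.65 and -0.36, and against 4 endothelial markers -0.50 and 0.57. The deviations of Hapln1 and Hapln2 thus had opposite signs against each of these 4 lists. They also did against GABA neuron, choroid plexus, meningeal fibroblast and hippocampus markers. Both were positive against fast-spiking (0.057 and 0.036) and oligodendrocyte precursor markers (0.14 and 0.053). Both were negative against striatal (-0.21 and -0.29) and neocortex markers (-0.079 and -0.28). Other net genes also had r past 0.5 in size against some lists. Hapln3 gave 0.79 against astrocyte, 0.54 against microglial and -0.52 against neocortex markers, and Hapln4 gave 0.56 against fast-spiking markers. Acan gave -0.60 against striatal and 0.60 against hippocampus markers. Vcan gave -0.68 against microglial markers, and Tnr -0.61 against microglial and 0.63 against hippocampus markers. Bcan, Ncan and Has3 had no such value. Hippocampus TDP43-WT female 2 was highest of its group for oligodendrocyte, microglial and astrocyte markers and lowest for endothelial ones.

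The list of enzymes that cut nets, with their inhibitors, held the 2 pathway genes that passed the threshold for genotype. Of 20 net-degrading enzymes and inhibitors tested, 1 rose and 1 fell in the hippocampus, where 0.386% of all genes passed, and 0 passed in the neocortex, where 0.224% did. Adamts4, an aggrecanase that cleaves lecticans, was at 0.69, 0.72, 0.79 and 0.64 in hippocampus TDP43-WT and 0.030, 0.049, 0.31, 0.16 and 0.015 in TDP43-KQ. The groups lay well apart, and Adamts4 fell by 0.60 ± 0.090 (adjusted p = 0.00983). In the neocortex the groups did not overlap either, with a difference of -0.34 ± 0.084 (adjusted p = 0.108).

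Timp3, an inhibitor of such proteases, was at -0.11, -0.35, -0.14 and -0.11 in hippocampus TDP43-WT and 0.74, 0.24, 0.26, 0.25 and 0.54 in TDP43-KQ. Every TDP43-KQ library was the higher, with female 1 the highest, and Timp3 rose by 0.58 ± 0.11 (adjusted p = 0.0392). Both calls were lost without hippocampus TDP43-KQ female 1, where Adamts4 was at -0.55 ± 0.10 (adjusted p = 0.107) and Timp3 at 0.40 ± 0.092 (adjusted p = 0.227). The call of Timp3 was also lost without 12 other libraries, every one but neocortex TDP43-WT female 2 and male 1, TDP43-KQ female 2 and male 1, and hippocampus TDP43-KQ females 2 and 3 and male 1. With each female mouse as a random block the adjusted p of Timp3 was 0.0666. Mmp2, a gelatinase, gave 0.45 ± 0.15 (adjusted p = 0.193) in the hippocampus. In the neocortex the aggrecanase family member Adamts9 gave 0.35 ± 0.076 (adjusted p = 0.0644). The list had a median of 0.051 in the hippocampus and -0.025 in the neocortex.

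In the other 5 pathway lists 0 genes passed for genotype in either region. These were 11 hyaluronan synthases and binders (median -0.043 in the hippocampus), 14 genes of chondroitin sulfate chain synthesis (0.0042), 8 chondroitin sulfotransferases (-0.021), 8 receptors of nets and chondroitin sulfate (-0.061) and 15 other matrix partners of nets (-0.082). Their lowest hippocampus p values were those of B3gat3, which builds the linker between core protein and chain, at -0.25 ± 0.073 (adjusted p = 0.151), and of Lyve1, a hyaluronan receptor, at 0.39 ± 0.12 (adjusted p = 0.185). Nptx2, a pentraxin that gathers glutamate receptors on net-bearing interneurons, gave -0.28 ± 0.095 (adjusted p = 0.212).

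Between regions, where 28.2% of all genes passed in TDP43-WT and 35.4% in TDP43-KQ, the shares of several lists lay near those of all genes. Ust, which sulfates the uronic acid of the chain, was higher in the hippocampus by 1.21 ± 0.053 in TDP43-WT and 1.26 ± 0.046 in TDP43-KQ (adjusted p = 4.08e-10 and 5.22e-11), and 2 of 8 sulfotransferases were higher and 0 lower in TDP43-WT, with 4 higher and 0 lower in TDP43-KQ. Chst11, a 4-sulfotransferase, was the other in TDP43-WT, at 0.34 ± 0.041. Chain synthesis held Chsy3 at -0.59 ± 0.057 and Csgalnact1 at -0.42 ± 0.051, both lower, and Dse at 0.19 ± 0.043, higher. Of the degrading enzymes, 6 of 20 were higher in the hippocampus of TDP43-WT and 1 lower (8 and 1 in TDP43-KQ), led in TDP43-WT by Adamts9 (1.03 ± 0.078) and Adamts1 (0.86 ± 0.16), with Adamts5 lower (-0.34 ± 0.063).

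In TDP43-WT, among hyaluronan binders, Cd44 was higher in the hippocampus at 0.55 ± 0.13 (adjusted p = 0.0052) and Habp4 lower at -0.42 ± 0.054 (adjusted p = 2.79e-05). Of the receptors, Ptprz1 was higher (0.34 ± 0.079) and the integrin gene Itgav lower (-0.75 ± 0.064). Of 15 matrix partners, 3 were higher and 6 lower in TDP43-WT, and 5 higher and 8 lower in TDP43-KQ, against 28.2% and 35.4% of all genes that passed in either direction. In TDP43-WT, Sema3a, whose product binds the chondroitin sulfate of nets, was lower by 1.82 and Nptx2 by 1.08, while Crtac1 was higher at 0.56 ± 0.059.

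Markers of several cell types lay apart between genotypes beside the net genes. In the hippocampus 8 of 8 markers of fast-spiking interneurons lay lower in TDP43-KQ, 0 of them past the threshold (median -0.12), and the mean of the list ran from -0.40 to -0.16 over TDP43-KQ libraries and from -0.15 to -0.083 over TDP43-WT libraries. Pvalb, which encodes parvalbumin, gave -0.31 ± 0.10 (adjusted p = 0.198). Sst, which marks another class of interneurons, was at 0.23, 0.48, 0.26 and 0.26 in TDP43-WT and -0.19, -0.16, -0.18, -0.068 and -0.040 in TDP43-KQ. It fell by 0.44 ± 0.063 (adjusted p = 0.00773), the only 1 of 6 markers of GABA neurons to pass, and without hippocampus TDP43-KQ female 1 the adjusted p was 0.0876. In the neocortex 7 of 8 fast-spiking markers (median -0.079) and 5 of 6 markers of GABA neurons (median -0.22) also lay lower, 0 past the threshold. The study's own DESeq2 test, with sex and litter in its design, did report Gad1 and Gad2 as lower in the neocortex. Markers of striatal projection neurons, given below, were lower there too, and their part was not tested. Of the GABA neuron markers 4 reached an unadjusted p under 0.05 there, and for 3 the groups did not overlap. Of all genes in the neocortex, 14.4% reached that p and 8.63% did not overlap, in either direction. The part of interneurons in the lower values of Hapln4, Has3, Acan and Bcan was not tested.

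Oligodendrocyte markers were lower in TDP43-KQ in 12 of 12 cases in both regions, 0 past the threshold, with medians of -0.30 in the hippocampus and -0.20 in the neocortex. Adamts4 is known from these cells, and their list mean ran from 0.015 to 0.33 in hippocampus TDP43-KQ and 0.30 to 0.62 in TDP43-WT. Astrocyte markers were lower in 9 of 10 cases in the hippocampus and 10 of 10 in the neocortex, and microglial markers in 6 of 6 in each, with 0 past the threshold. In the hippocampus 11 of 12 oligodendrocyte, 4 of 10 astrocyte and 4 of 6 microglial markers were lower at an unadjusted p under 0.05. At that p 0 were higher. For 2, 2 and 4 markers of these lists the groups did not overlap, all lower in TDP43-KQ. Of all genes 7.65% were lower at that p and 5.45% lay lower without overlap. In the neocortex 4, 3 and 2 markers were lower at that p, and 2, 3 and 1 lay lower without overlap. Bcan and Ncan are made by astrocytes in part, and the share of these cells in their values was not tested.

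Markers of choroid plexus, meninges and striatum also varied. The 4 choroid plexus markers were higher in hippocampus TDP43-KQ in 4 of 4 cases (median 1.31, 0 past the threshold), with list means from 0.086 to 4.12 over its libraries and from -0.34 to 2.28 in TDP43-WT. The 5 markers of meningeal fibroblasts were higher in 5 of 5 cases (median 0.48), and 1 of them, Lum, rose by 0.51 ± 0.098 (adjusted p = 0.0364, but 0.227 without hippocampus TDP43-KQ female 1, and also above the threshold without 10 of the other 19 libraries taken singly, and 0.0696 with each female mouse as a random block). Timp3 moved in the same direction as these markers, and their part in it was not tested. In the neocortex 6 of 6 markers of striatal projection neurons were lower in TDP43-KQ (median -0.36, 0 past the threshold). The source of the differences in these 3 marker lists was not tested, and dissection and genotype cannot be told apart here.

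Between regions Pvalb, a marker of the neurons that carry most nets, was lower in the hippocampus. The differences were -0.59 ± 0.10 (adjusted p = 0.000357) in TDP43-WT and -0.70 ± 0.088 (adjusted p = 1.67e-05) in TDP43-KQ, the largest of the 8 fast-spiking markers in each. Of these 8, 6 lay lower in TDP43-WT, 2 past the threshold, and 8 in TDP43-KQ, 4 past it. Of all genes 14.7% and 18.2% were lower past the threshold. Of the 10 net genes 7 lay higher in the hippocampus in each genotype, against 51.5% of all genes in TDP43-WT and 53.8% in TDP43-KQ. Astrocyte markers were higher in the hippocampus in 8 of 10 cases, 6 of them past the threshold in each genotype, and oligodendrocyte markers in 12 of 12, of which 4 passed in TDP43-WT and 2 in TDP43-KQ. Of all genes 13.5% in TDP43-WT and 17.2% in TDP43-KQ were higher past the threshold, so the oligodendrocyte share in TDP43-KQ lay close to that of all genes. The part of cell makeup in the region differences of Vcan, Hapln1, Tnr and Has3 was not tested.

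**Figure D5:**
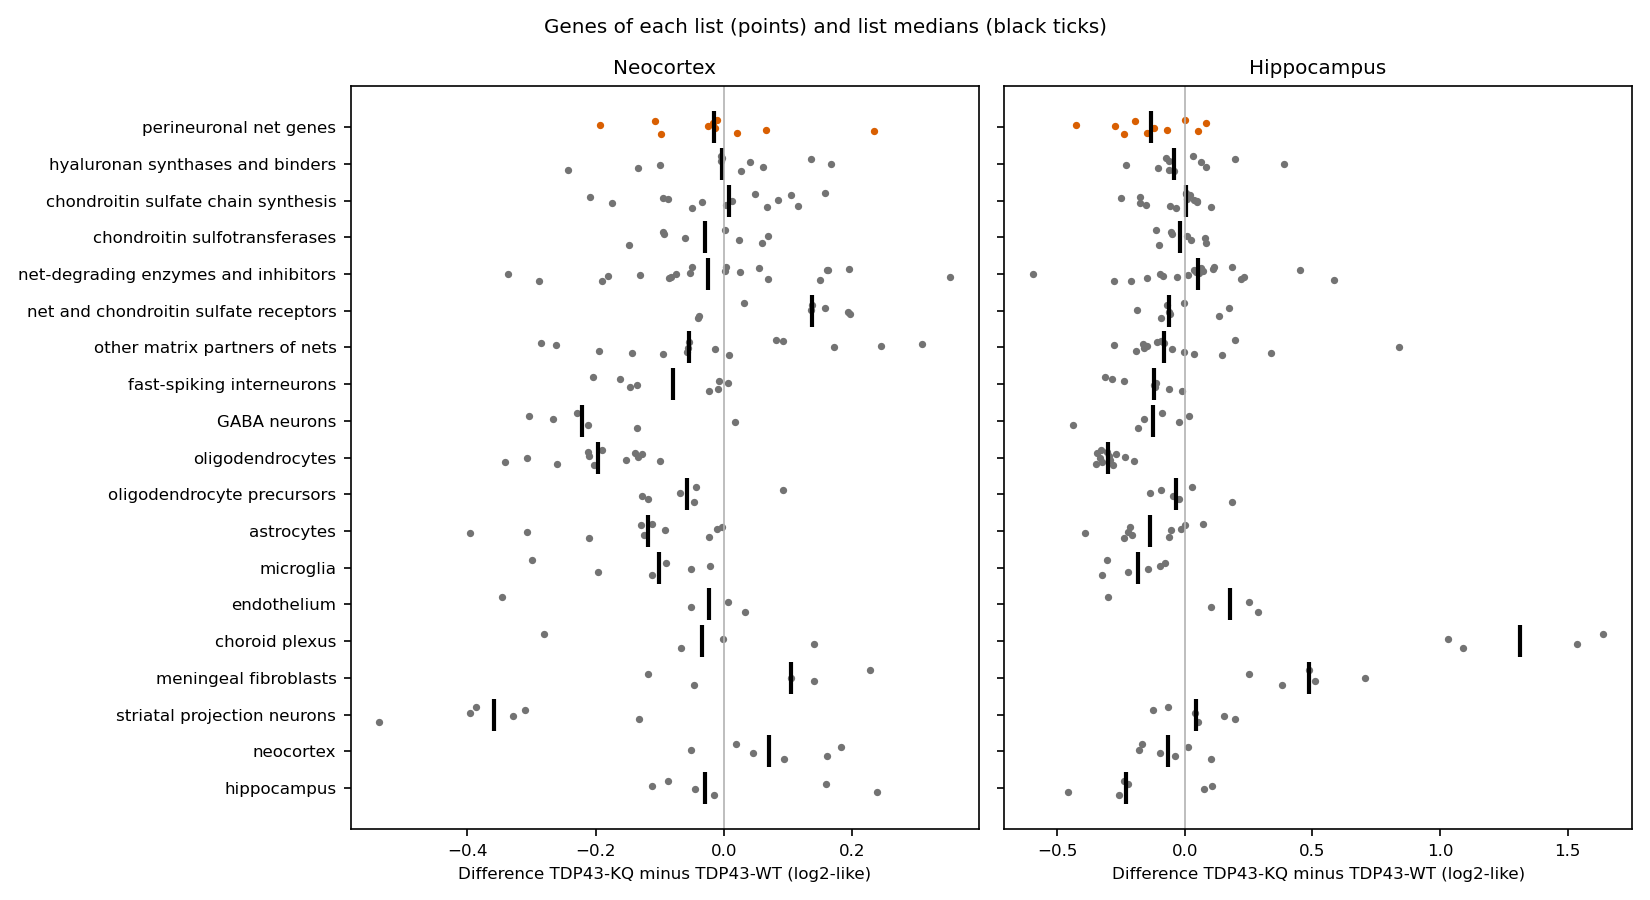
Difference between TDP43-KQ and TDP43-WT (x axis, log2-like units, scaled separately for each region) for each gene of the net genes (orange), the pathway lists and the cell type marker lists (grey), with black ticks for medians. In the hippocampus the oligodendrocyte markers sit together left of 0 and the choroid plexus markers above 1.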

How the data were processed

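Total RNA of 20 libraries of mouse neocortex and hippocampus was sequenced with depletion of ribosomal RNA. After adapter trimming (cutadapt), the authors mapped reads to mm10 under the RefSeq annotation (STAR 2.5.2b), obtained abundances from Salmon, stabilized the variance in DESeq2 1.34.0 (R 4.1.0) and took out sex and litter effects by limma. The deposited values are therefore on a log2 scale, with every gene centred on the mean of neocortex TDP43-KQ; the table holds no counts, so depth per library is unknown and no counting interval was formed.

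Groups, sex and litter came from the sample labels. Calculations used R 4.3.3, limma 3.58.1, statmod 1.5.0, Python 3.11.15, pandas 2.3.3, numpy 2.4.6 and matplotlib 3.10.9. Genes that do not vary (4383) and genes tied in all 3 or more libraries of 1 sex and litter of a region were left out, which kept 17863. lmFit and eBayes were run over all 20 libraries with group, sex and litter (11 residual degrees of freedom), with Benjamini and Hochberg adjustment and a threshold of 0.05. The script was tested on simulated data. Where mice gave both regions, libraries were taken as independent; the labels do not state this, but the female libraries of both regions agree in genotype, number and litter for 6 mice.

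The net genes and the lists were chosen with earlier results of these data known. Besides all 10 net genes, the text names from each list the genes past the threshold for genotype, otherwise up to 3 with the lowest p, the 2 with the largest region difference in each direction, and for each net gene the 3 most correlated genes. Fezf2 and Pvalb between regions were named after their values were seen. The alternatives were other terms for sex and litter, each region alone, replicate blocks, other filters, centred libraries and the omission of each library.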

Additional observations from a re-analysis of the deposited data

How the results depend on the processing

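Of the differences of net genes under alternatives other than the omission of a library, 365 kept direction and side of the threshold, 27 newly passed it, 0 lost it and 8 turned, none of the 8 past the threshold; the causes were not tested. With each region fitted alone, 0 genes of the table passed for genotype in the hippocampus and 7 in the neocortex, and Tnr gave -0.0031 there. By group alone, which leaves the removed litter terms uncounted, 2077 and 2381 genes passed for genotype, 69 for region by genotype and 7562 for region in TDP43-WT, and 4 net genes passed in the hippocampus (Hapln4, Acan, Bcan and Has3) and 7 for region in TDP43-WT; by group and sex the counts were 1584 and 1812 genes and again 4 and 7 net genes. Whether same-numbered libraries pair could not be read from the values, since litter had been taken out of them, which forces some libraries apart (TDP43-KQ female 2 has r of -1 between regions by construction). Of 9 pairs of genotypes 1 correlated over 0.1, and of 6 pairs of female libraries between regions, which may be the same mice, 2 did, with r up to 0.72; the correlation estimated within female mice was 0.27. With sex and number as a replicate block, 941 and 1137 genes passed for genotype and 1 for region by genotype, with 2 net genes in the hippocampus (Hapln4 and Has3); under this block Hapln1 turned to 0.00032 in the neocortex, -0.0074 in the hippocampus and -0.0077 between regions, Tnr to -0.0095 in the neocortex and Acan to 0.0091 for region in TDP43-KQ. With each female mouse as a random block, 36 and 51 genes passed for genotype in the neocortex and hippocampus, and the block of females alone moved no count of net genes. Centring each library turned Hapln1 in the hippocampus to -0.0039 and Bcan for region in TDP43-KQ to -0.00094. With a library left out in turn, genes passing for genotype ran from 7 to 123 in the neocortex (without TDP43-KQ female 1 and without hippocampus TDP43-WT female 2) and from 8 to 137 in the hippocampus (without its TDP43-KQ female 1 and without neocortex TDP43-KQ male 1), and net genes passing for region in TDP43-WT from 2 to 5; 0 net genes passed for genotype in any of these fits. Uncalled differences that turned in at least 1 of them ran from -0.034 to 0.031 (Hapln1), -0.052 to 0.0082 (Hapln3), -0.092 to 0.053 (Acan), -0.036 to 0.0089 (Bcan) and -0.017 to 0.088 (Tnr) for genotype in the neocortex, from -0.089 to 0.089 (Hapln1) and -0.0059 to 0.13 (Vcan) in the hippocampus, from -0.045 to 0.0079 (Hapln3, region in TDP43-WT), -0.066 to 0.015 (Acan) and -0.011 to 0.022 (Bcan) for region in TDP43-KQ, and from -0.092 to 0.11 (Hapln1) and -0.22 to 0.026 (Hapln2) for region by genotype. Called differences that lost the threshold in some of these fits were those of Hapln1 and Tnr in TDP43-WT and Vcan in TDP43-KQ; Vcan and Has3 in TDP43-WT and Hapln1, Hapln4 and Ncan in TDP43-KQ held in all 20. For region, 4 differences newly passed without 1 library: Acan (0.32) and Bcan (0.14) in TDP43-WT without neocortex TDP43-WT female 1, Hapln2 in TDP43-WT (0.37) without hippocampus TDP43-WT female 2, and Has3 in TDP43-KQ (0.16) without hippocampus TDP43-KQ male 1. Of the called genes of the lists, Adamts4, Timp3, Sst, Lum and Tardbp missed the threshold for genotype with the hippocampus fitted alone (adjusted p from 0.154 to 0.266), and Timp3 and Lum with the female mouse as a random block (0.0666 and 0.0696).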
